A study of Mus musculus with 8 samples.

Results

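The NFAT, NR4A and EGR genes Nfatc1, Nfatc2, Nfatc3, Nr4a1, Nr4a2, Nr4a3, Egr1, Egr2 and Egr3 are transcription factor genes that T cells use downstream of the T cell receptor. They were taken by gene name from a table of 11911 protein-coding genes, and all 9 were listed and passed the filter on low counts. RNA had been sequenced from cultures of splenic naïve CD4+ T cells polarized for 36 h toward induced regulatory T cells (iTregs). The cultures received anti-CD3 and anti-CD28 together with TGF-β, and antibodies that block IFNγ and IL-4. There were 4 libraries from Foxp3YFP-Cre mice (labelled WT) and 4 libraries from Tdrd3fl/fl/Foxp3YFP-Cre mice (labelled KO), all on a C57BL/6J background, and the ages of the mice are not given in the sources used here. Both genotypes carried the Foxp3YFP-Cre allele. Cre is expressed from the Foxp3 locus, so by design Tdrd3 is deleted in cells that have switched Foxp3 on. Which cells had deleted it was not measured here, and no sort of Foxp3-expressing cells before RNA extraction is described. The comparison asked whether the genotypes differed in the RNA of these genes, of which the NR4A and EGR transcripts serve as readouts of receptor signal. All libraries were from 36 h, so earlier signals were not measured. In bulk RNA, fewer cells that express a gene and less RNA per cell cannot be told apart.

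When the receptor is engaged, calcium enters the cell and the phosphatase calcineurin dephosphorylates the NFAT proteins, which then enter the nucleus and act with AP-1. The Ras-ERK pathway acts through serum response factor (SRF) and its partners, and transcription of the EGR genes follows within a short time. NR4A genes encode nuclear receptors that are induced quickly by antigen receptor signals, and Nr4a1 reporters are widely used to read signal strength. In Tregs, NFAT works with Foxp3, NR4A factors promote Foxp3 transcription, and EGR2 and EGR3 restrain effector responses and induce genes of anergy. Because NFAT is activated mainly by its movement into the nucleus, the level of an NFAT transcript is not a measure of NFAT activity, whereas NR4A and EGR transcripts are themselves products of signaling.

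None of the 9 genes passed the test between genotypes after adjustment over all genes tested (edgeR quasi-likelihood test, adjusted p below 0.05), where 0.265% of 11317 tested genes did, 0.0619% with a higher and 0.203% with a lower level in KO-labelled libraries. Egr1 and Egr2 had higher means in the KO-labelled libraries, by 1.11 and 1.16 times, with an unadjusted p below 0.05. For comparison, 4.38% of all tested genes were higher in KO-labelled libraries at that level, 4.91% were lower, and 9.3% passed in either direction. DESeq2 also had 0 of the 9 past the adjusted threshold and Egr1 and Egr2 at an unadjusted p below 0.05, where 8.28% of all genes were. The 95% confidence intervals of the remaining 7 genes included no difference. For the strongly expressed Nr4a1 and Nr4a3 the intervals were narrow: the KO-labelled level of Nr4a1 lay between 0.929 and 1.04 times the WT-labelled level, and that of Nr4a3 between 0.915 and 1.03 times. The 4 libraries of 1 genotype lay wholly above or below the other 4 for 0 of the 9 genes, against 4.89% of all tested genes.

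Before these values are read, the libraries' own limits need to be given. Library totals ran from 13258239 to 16001676 estimated counts, and levels below are CPM, the counts scaled to a common library size after TMM normalization. Tdrd3 itself was measured at 18.8, 15.1, 9.95 and 17.7 CPM in WT-labelled libraries 1 to 4 and at 13.7, 10.7, 12.9 and 11.1 CPM in KO-labelled libraries 1 to 4. The difference did not pass (log2 fold change -0.35, SE 0.155, edgeR adjusted p = 0.496), and the WT-labelled library 3 had less Tdrd3 RNA than every KO-labelled library. Without that library the log2 fold change of Tdrd3 was -0.51 (edgeR unadjusted p = 0.000484, adjusted p = 0.115), and without WT-labelled library 1 it was -0.23. The gene-level count covers all exons, and which exons were floxed is not given in the sources used here. WT-labelled library 3 also had 11.3 CPM of Cd8a, the CD8 coreceptor gene, where the other 7 had between 0.436 and 1.37 CPM. Foxp3 stood at 117, 122, 107 and 93.8 CPM in WT-labelled and at 77.2, 105, 93.2 and 78.1 CPM in KO-labelled libraries (log2 fold change -0.31, SE 0.088, edgeR adjusted p = 0.152). The Foxp3 difference passed the adjusted threshold without KO-labelled library 2 (-0.41, edgeR adjusted p = 0.0104) or WT-labelled library 4 (-0.38, edgeR adjusted p = 0.0337), and was -0.15 without KO-labelled libraries 1 and 4. KO-labelled libraries 1 and 4 stood apart from 2 and 3 also in Klf2, at 22.2 and 24.4 CPM against 45.3 and 44.3 CPM, a split that was seen only after the values were known. Of the markers of other cells, 3 of 5 for B cells, 2 of 7 for myeloid cells, 1 of 6 for dendritic cells (H2-Ab1) and 2 of 4 for NK cells were in the table, and Ms4a1, Csf1r, Itgam, Itgax and Ncr1 were not. Their sums over all libraries ran from 1.09 to 3.71, 0.439 to 2.11, 5.45 to 11.5 and 2.38 to 4.48 CPM. The 6 T cell markers summed to 1690 to 1790 CPM in WT-labelled and 1660 to 1740 CPM in KO-labelled libraries, and Cd8a with Cd8b1 to 7.72 to 21.8 and 6.68 to 8.35 CPM.

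The regulatory sequences just upstream of Egr2 and Nr4a3 are shown because they hold the elements through which such signals are known to act. They were read from the GRCm39 genome as the 250 bases before the start of each gene's Ensembl canonical transcript (GENCODE vM39), on the gene's strand. Capitals mark a CArG box, the site of SRF, and the core of the cAMP response element (CRE), written TGACG or, on the opposite strand, CGTCA.
Egr2, chr10:67373442-67373691, plus strand: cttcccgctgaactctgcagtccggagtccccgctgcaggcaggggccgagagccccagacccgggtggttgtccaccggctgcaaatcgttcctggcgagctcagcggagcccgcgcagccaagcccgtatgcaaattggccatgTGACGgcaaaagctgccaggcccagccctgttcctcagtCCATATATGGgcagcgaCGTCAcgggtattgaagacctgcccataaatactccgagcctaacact
Nr4a3, chr4:48044903-48045152, plus strand: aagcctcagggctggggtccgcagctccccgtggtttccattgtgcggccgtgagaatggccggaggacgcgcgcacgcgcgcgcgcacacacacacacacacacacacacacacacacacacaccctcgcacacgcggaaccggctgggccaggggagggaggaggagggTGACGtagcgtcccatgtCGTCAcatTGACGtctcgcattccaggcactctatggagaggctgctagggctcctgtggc
The Egr2 window lies inside the extent the table gives for Egr2 and holds 150 bases that the annotation counts as exon of Gm66196, whereas no annotated exon lies in the Nr4a3 window.

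Egr2 carried a CArG box 65 to 56 bases upstream of its start and a CRE core 48 to 44 bases upstream of it. A CArG box was found in 1.1% of 11910 windows of the same length, 135 windows in all, 2 of them upstream of the 9 genes. In 11 of the 135 windows, those 2 included, the CArG box lay within 20 bases of a CRE core. CRE cores were found upstream of 5 of the 9 genes, Nr4a1, Nr4a3, Egr1 and Egr2 among them, and in 24.2% of all windows. Nr4a3 held 3 CRE cores between 79 and 49 bases upstream of its start. The whole element TGACGTCA, which contains the core, was in 2.1% of all windows, the EGR site GCGTGGGCG in 0.8% and the NR4A site AAAGGTCA in 1.0%, and none of these 3 was in the Egr2 or Nr4a3 window. The short NFAT core GGAAA was found upstream of 7 of the 9 genes, all 3 NFAT genes among them, and in 56.3% of all windows. All motifs were searched on both strands, and a match is a description of letters, not of a bound site.

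Among the NR4A genes, Nr4a3 was the most strongly expressed of the 9 and Nr4a2 the weakest. Nr4a3 (ENSMUSG00000028341, chr4:48045153-48086447) was measured at 858, 873, 808 and 790 CPM in WT-labelled libraries 1 to 4 and at 793, 800, 838 and 795 CPM in KO-labelled libraries 1 to 4. The WT-labelled values spanned the KO-labelled values entirely. The mean was 832 ± 39.4 CPM in WT-labelled and 806 ± 21.2 CPM in KO-labelled libraries (SD, n = 4), a log2 fold change of -0.05 (95% confidence interval -0.13 to 0.04, edgeR adjusted p = 0.824). Nr4a1 (ENSMUSG00000023034, chr15:101152150-101172676), the gene behind the common reporters of signal strength, stood at 464, 479, 432 and 466 CPM in WT-labelled and at 449, 448, 467 and 446 CPM in KO-labelled libraries. Its 4 KO-labelled values again lay within the WT-labelled range. The means were 460 ± 19.8 and 453 ± 9.87 CPM (SD, n = 4), with a log2 fold change of -0.02 (95% confidence interval -0.11 to 0.06, edgeR adjusted p = 0.918). Exons of Gm63180 overlap those of Nr4a1 on the opposite strand, and it is not given in the sources used here whether counting used strand.

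Nr4a2 (ENSMUSG00000026826, chr2:56996842-57014015), best known for its role in dopaminergic neurons, was the least precise of the 9, with 69 to 134 counts per library. It was measured at 6.37, 5.02, 5.96 and 6.44 CPM in WT-labelled libraries and at 9.73, 6.08, 6.31 and 6.11 CPM in KO-labelled libraries. The KO-labelled library 1 alone lay above the WT-labelled range, and the other 3 lay inside it. The log2 fold change was 0.24 (95% confidence interval -0.13 to 0.61, edgeR adjusted p = 0.777) and 0.05 without that library. As a ratio, the interval put the KO-labelled level between 0.916 and 1.53 times the WT-labelled level, which includes no difference. Of the family's summed level per kilobase, Nr4a3 made up 76.4% in WT-labelled and 76.1% in KO-labelled libraries, Nr4a1 23.2% and 23.5%, and Nr4a2 0.4% and 0.487%. None of these shares differed beyond the spread between libraries (two-sided exact permutation p = 0.514, 0.6 and 0.314). Shares per kilobase, here and for the other families, depend on the annotated exon length, which counts exons of every isoform. That length was 10.9 kb for Nr4a1 and 5.99 kb for Nr4a3, and other lengths would give other shares.

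**Figure D1:**
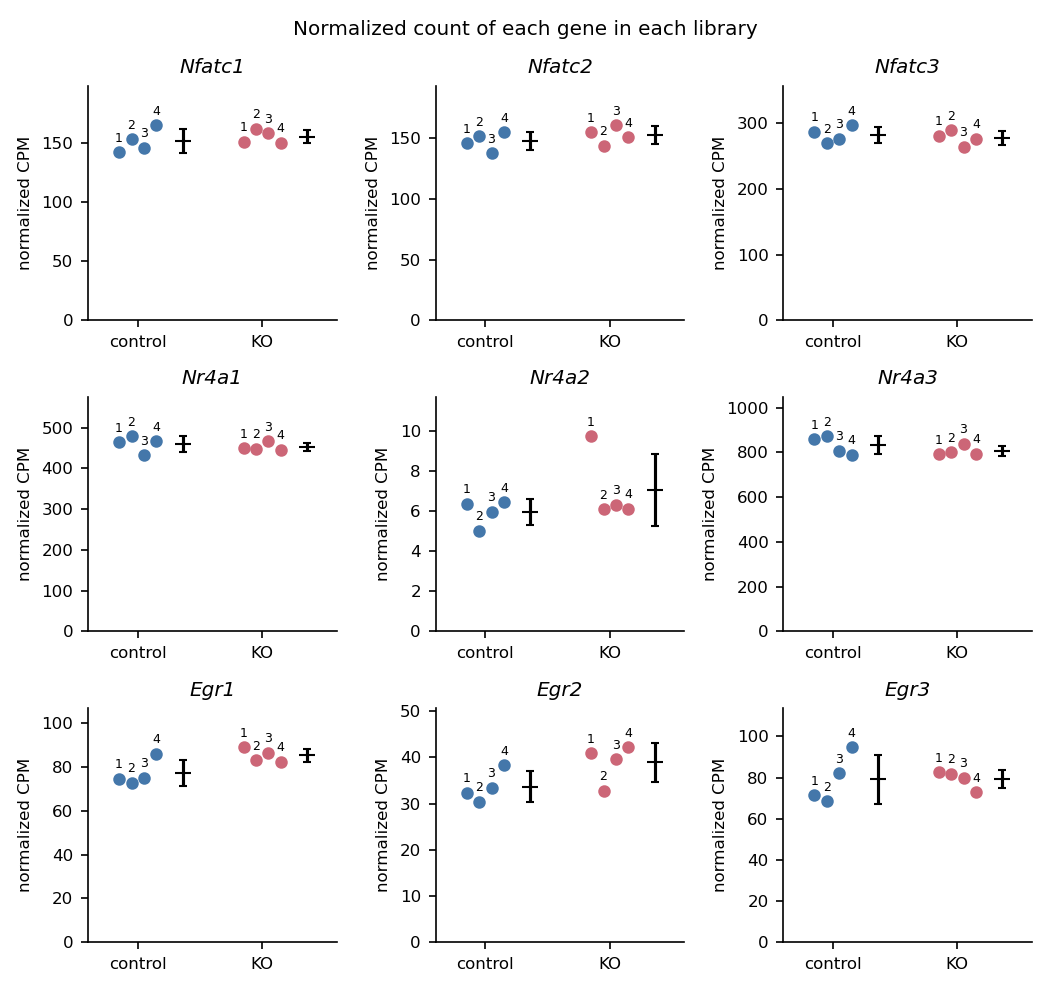
Normalized CPM (y axis, from 0) of each of the 9 genes in the 4 WT-labelled libraries (control, blue) and the 4 KO-labelled libraries (red); numbers beside the points are replicate numbers and bars give the mean and SD. The genotypes overlap for every gene, Nr4a2 has a high point at 9.73 CPM in KO-labelled library 1, and WT-labelled library 4 is the highest control for all 3 EGR genes.

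The EGR genes were the members with the largest relative spread between libraries at a given level, and Egr1 and Egr2 were those whose intervals did not reach 0. Egr1 (ENSMUSG00000038418, chr18:34992876-34998037), a zinc finger factor of the immediate early response, was measured at 74.5, 72.6, 74.9 and 85.8 CPM in WT-labelled libraries 1 to 4. In the KO-labelled libraries it stood at 88.9, 82.9, 86.3 and 82.2 CPM. WT-labelled libraries 1 to 3 lay below all KO-labelled libraries, and WT-labelled library 4 lay among them. The means were 76.9 ± 6.01 and 85.1 ± 3.1 CPM (SD, n = 4), a log2 fold change of 0.14 (SE 0.0574, 95% confidence interval 0.02 to 0.26). The unadjusted p was 0.0214 and the adjusted p 0.422 by edgeR, and the two-sided exact permutation test gave p = 0.0857, where 4 libraries against 4 allow no p below 0.0286.

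Egr2 (ENSMUSG00000037868, chr10:67371305-67378018), which is required for anergy and restrains effector T cells, was measured at 32.3, 30.4, 33.4 and 38.3 CPM in WT-labelled libraries and at 40.9, 32.8, 39.6 and 42.2 CPM in KO-labelled libraries. Here KO-labelled libraries 1, 3 and 4 lay above all WT-labelled libraries and KO-labelled library 2 lay inside their range. The means were 33.6 ± 3.37 and 38.9 ± 4.17 CPM (SD, n = 4), with a log2 fold change of 0.21 (SE 0.0854, 95% confidence interval 0.03 to 0.39, edgeR unadjusted p = 0.0247, adjusted p = 0.446; two-sided exact permutation p = 0.0857). Without KO-labelled libraries 1 and 4 the log2 fold change of Egr2 was 0.10 (edgeR unadjusted p = 0.326) and that of Egr1 was 0.14 (edgeR unadjusted p = 0.0826), and without WT-labelled library 3 the log2 fold changes were 0.21 for Egr2 and 0.13 for Egr1. Leaving out single libraries moved the number of members with an unadjusted p below 0.05 from 2 to between 0 and 2: it was 0 without KO-labelled library 1, WT-labelled library 1 or WT-labelled library 2, and 1 (Egr1) without KO-labelled library 3 or 4.

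Egr3 (ENSMUSG00000033730, chr14:70314652-70320063), which overlaps with Egr2 in function, had nearly the same mean in both genotypes, 79.2 ± 11.9 CPM in WT-labelled and 79.3 ± 4.49 CPM in KO-labelled libraries (SD, n = 4). It was measured at 71.4, 68.6, 82.0 and 94.8 CPM in WT-labelled and at 82.6, 81.9, 80 and 72.8 CPM in KO-labelled libraries. The WT-labelled libraries held both the lowest and the highest value, and the KO-labelled libraries lay between them. The log2 fold change was 0.00 (SE 0.0793, 95% confidence interval -0.16 to 0.17, edgeR adjusted p = 0.997), and its sign turned when single libraries were left out (-0.06 to 0.10). Egr3 lies 17.3 Mb from Tdrd3 on the same chromosome. WT-labelled library 4 had the highest control level of Egr1, Egr2 and Egr3 and the lowest control level of Foxp3, 93.8 CPM.

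Within the EGR family the share of Egr2 in the summed level per kilobase was 22.6% ± 0.326 in WT-labelled and 24.2% ± 2.32 in KO-labelled libraries (SD, n = 4), with no difference beyond the spread (two-sided exact permutation p = 0.171). Egr1 made up 39.2% and 40.1% and Egr3 38.3% and 35.7% (two-sided exact permutation p = 0.4 and 0.143). The 6 Treg marker genes, Foxp3 and the strongly expressed Il2ra included, summed to 3580 to 3720 CPM in WT-labelled and 3360 to 3480 CPM in KO-labelled libraries, and the 7 naïve T cell markers to 1260 to 1420 and 1230 to 1280 CPM. The Treg sums were lower in every KO-labelled library than in every WT-labelled library. Il2ra, at 2030 to 2370 CPM, made up most of these sums and was also without overlap. Foxp3, Ikzf2, Ikzf4 and Tnfrsf18 had lower means in KO-labelled libraries but overlapped, and Ctla4 went the other way (log2 fold change 0.06). The part of the Treg markers in the values of Egr1 and Egr2 was not tested.

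**Figure D2:**
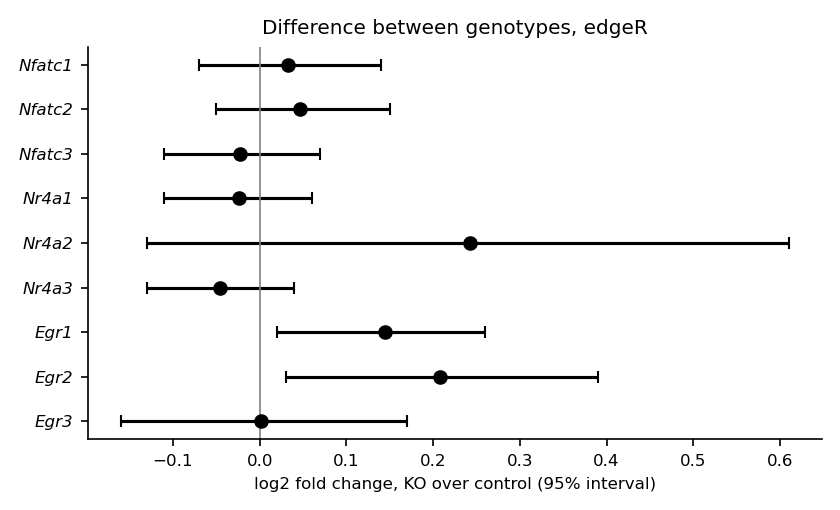
Log2 fold change of KO-labelled over WT-labelled libraries (x axis) for each of the 9 genes, with 95% confidence intervals from edgeR (n = 4 per genotype). The intervals of Egr1 (0.02 to 0.26) and Egr2 (0.03 to 0.39) lie above 0, the other 7 include 0, and that of Nr4a2 is the widest (-0.13 to 0.61).

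The coefficient of variation of the NFAT genes across libraries was 3.88% to 5.05%, an ordinary spread for their level. Nfatc1 (ENSMUSG00000033016, chr18:80649420-80756286), the member whose short isoform is induced by NFAT itself, was measured at 142, 153, 146 and 165 CPM in WT-labelled and at 151, 162, 158 and 150 CPM in KO-labelled libraries. The KO-labelled values lay within the WT-labelled range, and the log2 fold change was 0.03 (95% confidence interval -0.07 to 0.14, edgeR adjusted p = 0.905). The table gives 1 value per gene, so isoforms of Nfatc1 were not analysed here. Nfatc2 (ENSMUSG00000027544, chr2:168318330-168443577), the NFAT protein most abundant in resting T cells, stood at 146, 152, 138 and 155 CPM and at 155, 144, 161 and 151 CPM. Its ranges overlapped, with a log2 fold change of 0.05 (95% confidence interval -0.05 to 0.15, edgeR adjusted p = 0.857). Nfatc3 (ENSMUSG00000031902, chr8:106785472-106857169) stood at 287, 269, 276 and 297 CPM in WT-labelled and at 281, 289, 264 and 276 CPM in KO-labelled libraries. Its log2 fold change was -0.02 (95% confidence interval -0.11 to 0.07, edgeR adjusted p = 0.927). Of the family's summed level per kilobase, Nfatc1 made up 37.8% in WT-labelled and 38.2% in KO-labelled libraries, Nfatc3 35.9% and 34.9%, and Nfatc2 26.3% and 26.9%. Exons of Gm74613 overlap those of Nfatc2, and exons of Esrp2 those of Nfatc3, each on the opposite strand.

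Levels of different genes were compared as CPM per kilobase of annotated exon, the mean over 8 libraries. Nr4a3 came first with 137 CPM per kilobase, 172nd of 11316 genes with an exon length, and Nr4a1 followed with 41.9. Nfatc1 (20.1), Nfatc3 (18.7), Egr1 (18), Egr3 (16.8) and Nfatc2 (14.0) formed a group in which each gene's range over libraries overlapped that of its neighbour. Egr2 stood below them at 10.6 and Nr4a2 at 0.792, in place 9792. The steps at which ranges did not overlap were those from Nr4a3 to Nr4a1 (3.27 times), Nr4a1 to Nfatc1 (2.08 times), Nfatc2 to Egr2 (1.32 times) and Egr2 to Nr4a2 (13.4 times). Each of these 4 steps had the same order in all 8 libraries. Levels per kilobase depend on the annotated exon length, which counts exons of every isoform.

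**Figure D3:**
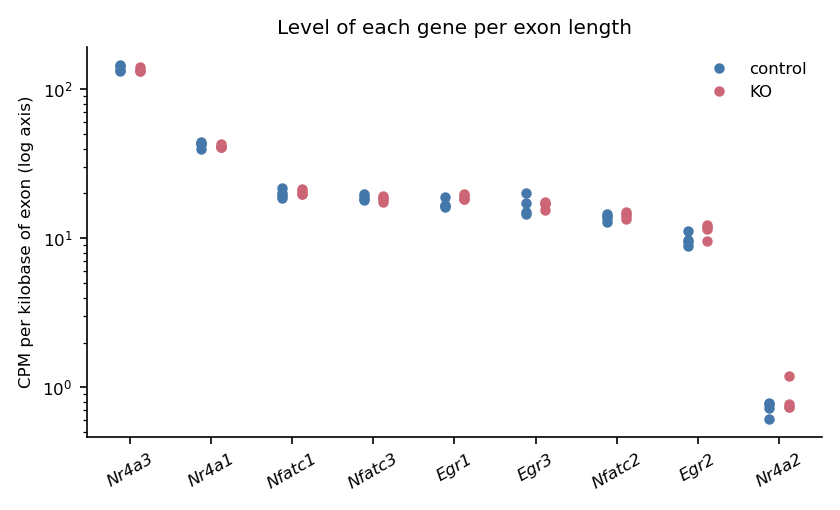
CPM per kilobase of exon (y axis, log scale) of the 9 genes in order of their mean, with 1 point per library (WT-labelled as control in blue, KO-labelled in red). Nr4a3 (137) and Nr4a1 (41.9) stand above a group of 5 genes between 14.0 and 20.1, and Nr4a2 (0.792) stands far below the others.

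The coefficient of variation over the 8 libraries was compared with that of genes whose mean CPM was within 1.5 times of the member's. Egr2 varied by 12.4%, where the median of 2503 such genes was 7.06% and 95.1% of them varied less. Egr3 varied by 10.5%, more than 95.4% of 2455 genes, and Egr1 by 7.65%, more than 84.6% of 2429 genes. The EGR genes thus lay in the upper part of the spread for their level, while Nr4a1 (3.29%), Nr4a3 (3.96%), Nfatc1 (5.05%), Nfatc2 (4.79%) and Nfatc3 (3.88%) lay nearer the middle, with 31.1%, 51.0%, 62.4%, 55.6% and 41.4% of like genes varying less. The 21.2% of Nr4a2 should be read with its low counts, since counting alone gives it 10.4%. For Egr3 the spread lay mostly among the WT-labelled libraries, 15% against 5.65% in KO-labelled libraries, while for Egr2 it was 10.0% and 10.7%.

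Across the 8 libraries, 36 pairs of the 9 genes were compared by Pearson's r and Spearman's rho of log2(CPM + 0.5). None passed after adjustment over the pairs (lowest adjusted permutation p = 0.387), and 3 had an exact permutation p below 0.05 for Pearson's r before it. Egr1 and Egr2 had r = 0.81 (exact permutation p = 0.0278) and rho = 0.71 (exact permutation p = 0.0576). Without the 2 libraries farthest from the median of Egr1, r was 0.61, and with each genotype centred it was 0.68 (exact permutation p = 0.102). Nr4a2 and Egr1 had r = 0.68 (exact permutation p = 0.0144) and rho = 0.69 (exact permutation p = 0.0694). Their r was 0.36 without the 2 libraries farthest from the median of Nr4a2, and 0.58 with each genotype centred (exact permutation p = 0.0729). Nr4a3 and Egr3 had r = -0.72 (exact permutation p = 0.0471) and rho = -0.83 (exact permutation p = 0.0154). Their r was -0.24 without the 2 libraries farthest from the median of Nr4a3, and -0.77 with each genotype centred (exact permutation p = 0.118). Leaving out the farthest libraries also narrows the range of values, so a smaller r does not show that a relation rests on them. Centred within genotype, the highest value was that of Egr1 and Egr3 (r = 0.87, exact permutation p = 0.0087, adjusted p = 0.312). Pairs within a family had a median r of 0.38 and pairs between families one of 0.19. Only the EGR pairs were all positive (0.38 to 0.81), while NR4A pairs ran from -0.51 to 0.67 and NFAT pairs from -0.26 to 0.40.

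**Figure D4:**
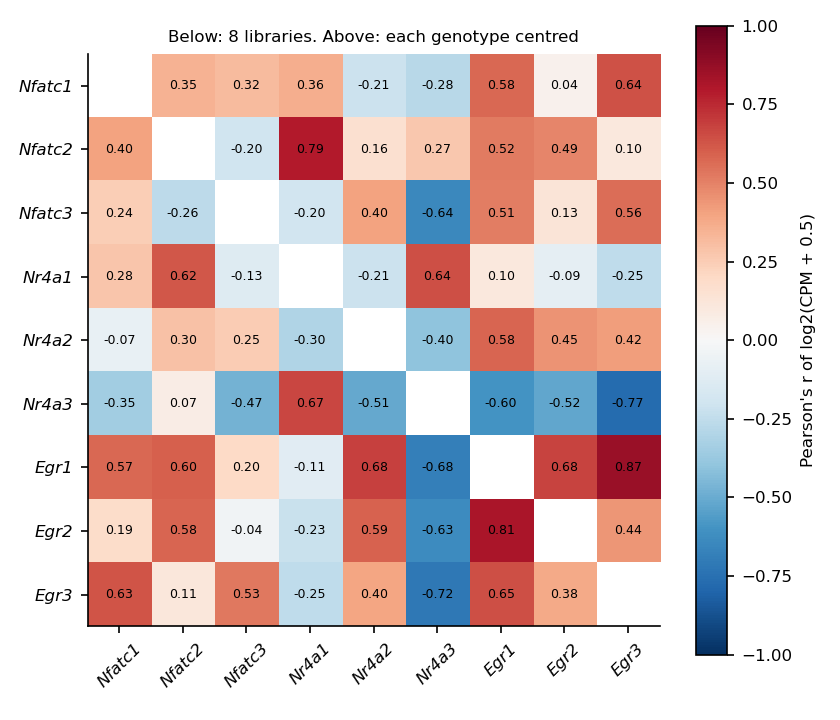
Pearson's r of log2(CPM + 0.5) for each pair of the 9 genes, over all 8 libraries below the diagonal and with each genotype centred above it; color runs from -1 (blue) to 1 (red). The 3 EGR genes correlate positively with each other in both triangles (Egr1 and Egr2 0.81 and 0.68), and Nr4a3 is negative with all 3 of them (Egr3 -0.72 and -0.77); no pair passed the adjustment over the 36 pairs.

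The genes whose pattern over the 8 libraries was most like that of each family's member with the highest mean CPM were named by Pearson's r of log2 CPM, as a description. For Nr4a3 these were Micall1 (0.981), Itgb2 (0.965) and Sema4d (0.964), and 46 of 11315 other genes had an r above 0.9. For Egr1 they were Ptges2 (0.975), Ralgapa1 (0.948) and Azin1 (0.946), with 23 genes above 0.9. For Nfatc3 they were Dync2h1 (0.963), Ggps1 (0.955) and Ddx31 (0.938), with 10 genes above 0.9. These are the highest of 11315 values over 8 libraries, and how many would exceed 0.9 by chance was not computed.

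The genes around the 9 members were read from 10 lists, from calcium entry to cytokine targets, which held 171 genes in all. Of these, 163 were in the table and 155 were tested. None passed the adjusted threshold in either direction by edgeR, against 0.265% of all tested genes. At an unadjusted p below 0.05, 11 were higher and 15 lower in KO-labelled libraries, 16.8% of the 155 against 9.3% of all tested genes (4.38% higher and 4.91% lower). The lists were chosen with earlier results of these data known, so this share and the list counts below do not test the lists. The median log2 fold change of the 155 was -0.014, beside 0.001 for all tested genes. DESeq2, which called 0.716% of all genes, called Il2ra and Lag3 among the 155. Genes below that are neither members nor the extremes or the most strongly expressed of their list were singled out after their values were seen, because their p was below 0.05 or their genotypes did not overlap.

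In the calcium entry list, 1 of 21 tested genes was higher and 2 were lower at an unadjusted p below 0.05. Atp2b4, a plasma membrane calcium pump, stood at 90.8, 90.0, 95.5 and 92.7 CPM in WT-labelled and at 117, 91.0, 106 and 124 CPM in KO-labelled libraries. KO-labelled library 2 lay among the WT-labelled libraries, and the other 3 lay above them (log2 fold change 0.25, SE 0.0707, edgeR adjusted p = 0.165). Without KO-labelled library 2 the adjusted p of Atp2b4 was 0.00455 by edgeR, and without KO-labelled libraries 1 and 4 its log2 fold change was 0.09. Atp2a3, a calcium pump of the endoplasmic reticulum, and Camk4, a calmodulin-dependent kinase, had log2 fold changes of -0.12 and -0.13 (edgeR adjusted p = 0.359 and 0.516).

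Among calcineurin and the regulators that shuttle NFAT, 1 of 19 tested genes was higher and 0 were lower at that level. It was Csnk1e, a casein kinase, at 34.8 to 40.8 CPM in WT-labelled and 41.4 to 45.2 CPM in KO-labelled libraries, which did not overlap (log2 fold change 0.16, edgeR adjusted p = 0.441). Ppp3cb, a catalytic subunit of calcineurin, had a log2 fold change of -0.09 and Ppia, the target of cyclosporin, also one of -0.09 (edgeR adjusted p = 0.539 and 0.673), that of Ppia being -0.02 without WT-labelled library 3. Of the other NFAT genes, Nfat5, the tonicity-responsive member, stood at 386 ± 31.2 and 408 ± 23.3 CPM (SD, n = 4), and Nfatc2ip, a protein that binds NFAT, at 41.3 ± 1.45 and 40.1 ± 3.14 CPM. Nfatc4 was listed but had too few counts to be tested.

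The Ras-ERK and SRF inputs to the EGR genes held 25 tested genes, of which 0 were higher and 1 lower at an unadjusted p below 0.05. This was Mrtfa, a coactivator of SRF, with a log2 fold change of -0.14 (SE 0.0646, edgeR adjusted p = 0.496). Crem, a CRE-binding factor, had one of 0.16 (95% confidence interval -0.02 to 0.34), which was 0.06 without WT-labelled library 4. Of 12 tested feedback inhibitors of ERK, which are themselves induced by the pathway, 1 was lower. Spred2 stood at 63.4 to 71.6 CPM in WT-labelled and 60.9 to 63.2 CPM in KO-labelled libraries (log2 fold change -0.12, edgeR adjusted p = 0.506). Dusp4 and Dusp10, phosphatases of MAP kinases, had log2 fold changes of 0.02 and 0.05. Among 4 tested partners of EGR and NR4A factors, none had an unadjusted p below 0.05 by edgeR: Nab2, a corepressor that EGR factors induce, stood at 107 ± 2.11 and 102 ± 3.24 CPM, and Rxra, a receptor that pairs with NR4A1, at 123 ± 22.7 and 135 ± 11.2 CPM (SD, n = 4). The log2 fold change of Rxra was 0.13 and became 0.26 without WT-labelled library 4 (edgeR unadjusted p = 0.000713, adjusted p = 0.0673) and 0.06 without WT-labelled library 2.

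Other immediate early genes had 3 of 22 tested genes higher and 3 lower at an unadjusted p below 0.05, with a median log2 fold change of 0.071. Fosl2, an AP-1 subunit, stood at 40.7, 41.7, 29.4 and 36.3 CPM in WT-labelled and at 65.6, 37.2, 50.1 and 63.6 CPM in KO-labelled libraries. KO-labelled library 2 lay inside the WT-labelled range (log2 fold change 0.54, SE 0.136, edgeR adjusted p = 0.0998). Without KO-labelled libraries 1 and 4 the log2 fold change of Fosl2 was 0.23, and without KO-labelled library 2 it was 0.69 (edgeR adjusted p = 0.00131). Atf3 (log2 fold change 0.52, edgeR adjusted p = 0.205) and Klf6 (0.18, adjusted p = 0.442) were the other two higher genes. The lower ones were Jun (-0.15), Jund (-0.13) and Zfp36l1 (-0.13), with edgeR adjusted p of 0.446, 0.319 and 0.37, while Junb, the highest of the list, had a log2 fold change of 0.08 (edgeR adjusted p = 0.572). AP-1 subunits thus had fold changes of both signs, and none passed.

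Among activation markers that scale with receptor signal, 3 of 19 tested genes were higher and 2 lower at that level. Lag3, an inhibitory receptor, stood at 26.8, 26.4, 25.8 and 23.7 CPM in WT-labelled and at 32.4, 28.6, 36.3 and 36.3 CPM in KO-labelled libraries, which did not overlap (log2 fold change 0.38, SE 0.0835, edgeR adjusted p = 0.0671). Il2ra, the high-affinity IL-2 receptor chain, stood at 2250, 2180, 2370 and 2270 CPM and at 2030, 2170, 2080 and 2030 CPM, again without overlap and in the opposite direction (log2 fold change -0.13, SE 0.036, edgeR adjusted p = 0.152). The others were Irf4 (0.11), Cd200 (0.27) and Tnfrsf9 (-0.20), with edgeR adjusted p of 0.446, 0.442 and 0.335.

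Cytokine targets of NFAT and AP-1 had 1 of 12 tested genes higher and 2 lower. Lta, which encodes lymphotoxin alpha, stood at 316, 313, 323 and 362 CPM in WT-labelled and at 460, 351, 348 and 420 CPM in KO-labelled libraries (log2 fold change 0.27, SE 0.0715, edgeR adjusted p = 0.138), and its partner Ltb had a log2 fold change of -0.12 (edgeR adjusted p = 0.494). Without KO-labelled libraries 1 and 4 these values were 0.09 for Lta and -0.01 for Ltb. Cd40lg, the CD40 ligand gene, had one of -0.17 (edgeR adjusted p = 0.499). WT-labelled library 4 overlapped KO-labelled libraries 2 and 3 in Lta. Among anergy and exhaustion targets of NFAT, EGR and NR4A, 2 of 19 tested genes were higher and 4 lower. Nt5e, which encodes the ectoenzyme CD73, stood at 97.3 ± 4.69 and 112 ± 7.59 CPM (SD, n = 4; log2 fold change 0.20, edgeR adjusted p = 0.139), and Ndrg1 had a log2 fold change of 0.23 (edgeR adjusted p = 0.252). Ikzf1, which encodes Ikaros, stood at 744 ± 6.02 and 695 ± 10.4 CPM without overlap (SD, n = 4; log2 fold change -0.10, edgeR adjusted p = 0.286), and Dgka, Ikzf4 and Ubash3a had log2 fold changes of -0.12, -0.12 and -0.11 (edgeR adjusted p = 0.471, 0.418 and 0.425). In all, 4 of the 155 list genes were higher and 4 lower with no overlap between genotypes, against 2.25% and 2.63% of all tested genes: the higher ones were Lag3, Csnk1e, Il3 and Ndrg1 and the lower ones Il2ra, Spred2, Ikzf1 and Orai2. Il3 had only 11 to 30 counts per library, at 0.771 to 0.873 CPM in WT-labelled and 0.977 to 2.04 CPM in KO-labelled libraries.

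**Figure D5:**
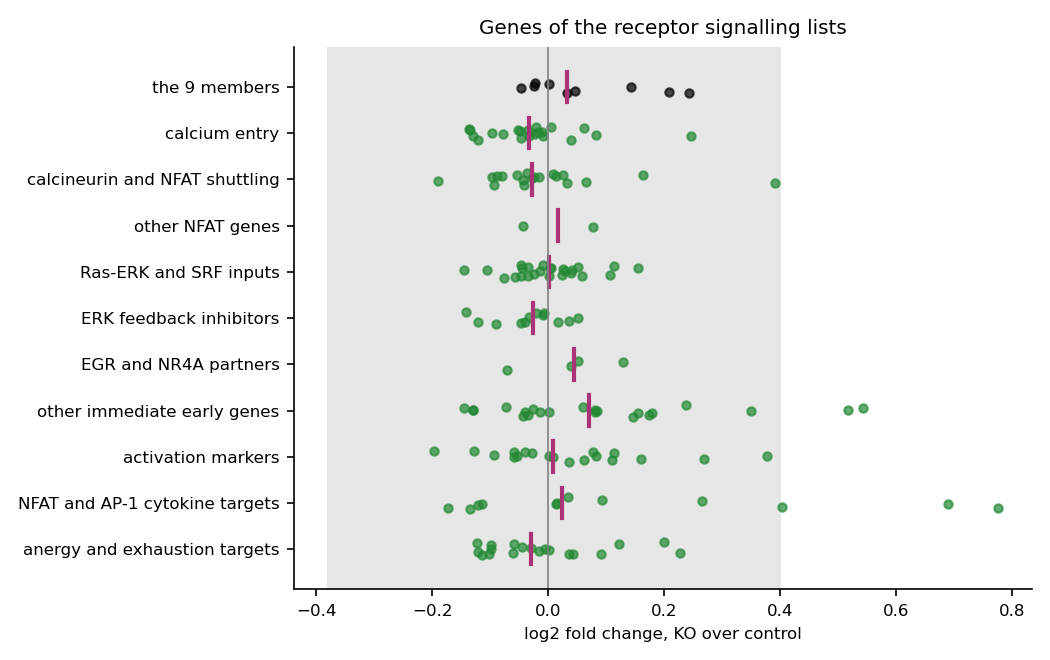
Log2 fold change of KO-labelled over WT-labelled libraries (x axis) for the 9 members (black) and the tested genes of the 10 lists (green), with the median of each row as a vertical bar and the range of 95% of all tested genes (-0.38 to 0.4) shaded. The members lie between -0.05 and 0.24, inside the shaded range, as do most list genes. Il2 (0.78) and Il3 (0.69) lie farthest beyond it, with 6 to 39 and 11 to 30 counts per library and intervals that include 0. Fosl2 at 0.54 is also among the few beyond it.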

How the data were processed

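Total RNA of 8 cultures was made into libraries with a ribosomal RNA depletion kit. The authors aligned reads to GRCm39 with STAR 2.7.8a and quantified genes in Partek Flow by expectation maximization, and deposited estimated counts for 11911 protein-coding genes that each reach 10 in some library; 42.8% of values are not whole (beyond 0.0005), since reads that fit several genes are shared out. The labels number 4 libraries per genotype and name no mice, and the methods describe fewer independent mice per group. Libraries may therefore share a mouse, in which case p-values are too small. All pairs within a genotype differed beyond sampling noise (chi-square per degree of freedom 2.59 to 6.29), least for KO-labelled libraries 1 and 4 (2.59) and WT-labelled libraries 1 and 2 (2.7), and each library was counted as 1 sample.

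Estimated counts were rounded, filtered (filterByExpr, minimum count 10; 11317 genes left) and tested with edgeR 4.0.16 (TMM, quasi-likelihood F-test, two-sided, genotype as the only term, Benjamini-Hochberg over all tested genes, threshold 0.05). Alternatives were DESeq2 1.42.0, voom with quality weights (limma 3.58.1), DESeq2 size factors in edgeR, library size only, no filter, at least 10 counts in every library, a replicate block, each library left out and, chosen after seeing the data, KO-labelled libraries 1 and 4 left out. Single values were also tested by exact permutation over the 70 arrangements of log2(CPM + 0.5). Exon lengths and starts came from GENCODE vM39 for 11910 genes. The fit was tested on simulated data. With counts of 69 to 12763 per member and library, precision covers counting and culture spread together.

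The members, gene lists and marker lists (T cell, Treg, naïve T cell, CD8 T cell, B cell, myeloid, dendritic cell, NK cell) were chosen with earlier results of these data known. Named were the members, Tdrd3 and Foxp3, any list gene past the adjusted threshold, in each list the gene with the smallest p among the higher and among the lower genes and the gene with the highest mean CPM, and for each family the 3 genes most correlated with its highest member. Some genes and a sequence that these rules give are not reported here.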

Additional observations from a re-analysis of the deposited data

Results flagged for a closer look

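In 5 of 68 groups of 4 libraries checked (the 9 members, the named list genes, Tdrd3 and Foxp3, in each genotype), the highest or lowest library stood further from the others than Dixon's 95% critical value allows. Chance flags about 1 in 20 such groups. Nr4a2 in KO-labelled library 1 stood at 9.73 CPM, where the other 3 had 6.08 to 6.31 CPM. Egr1 in WT-labelled library 4 stood at 85.8 CPM, where the other 3 had 72.6 to 74.9 CPM. KO-labelled library 3 was the highest of its group in Nr4a1 at 467 CPM (others 446 to 449), in Nr4a3 at 838 CPM (others 793 to 800) and in Nab2 at 107 CPM (others 100 to 101).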

How the results depend on the processing

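The number of members past the adjusted threshold was 0 in all 16 alternatives run, where the lowest adjusted p was 0.105 for Egr1 (without WT-labelled library 4) and 0.100 for Egr2 (without KO-labelled library 2). The log2 fold change of Egr1 lay between 0.12 and 0.20 and that of Egr2 between 0.10 and 0.28, with an unadjusted p below 0.05 in 12 and 10 of the 16. Members at that level numbered 0 to 2 when single libraries were left out and 0 without KO-labelled libraries 1 and 4. Members without overlap numbered 0 to 1 (Egr1 without WT-labelled library 4, Egr2 without KO-labelled library 2), and correlated pairs 0 to 1. In both cases the library left out was the one that had overlapped, so the lack of overlap follows from that choice. With 1 library left out only 35 arrangements remain, and the share of all tested genes without overlap is not given for them. List genes past the adjusted threshold numbered 2 with DESeq2 (Il2ra, Lag3), 1 with voom (Lag3) and 0 to 4 when single libraries were left out: 4 without KO-labelled library 2 (Lta, Atp2b4, Fosl2, Lag3) and 2 without WT-labelled library 4 (Lta, Tnfrsf9). With a replicate block they numbered 3 (Lta, Fosl2, Lag3), and they numbered 0 without KO-labelled libraries 1 and 4. The share of all tested genes called was 0.265% by edgeR with all libraries and 0.716% by DESeq2. It is not given for the other fits, so their counts of list genes cannot be read against all genes. Foxp3 also passed with the replicate block (adjusted p = 0.0161) and with voom (0.0416). Same-numbered libraries did not deviate together (r of -0.0458, 0.00404, -0.0417 and 0.0691). This cannot exclude that the numbers pair the samples, since a pairing need not leave a shared deviation over all genes. No member was called with the block, where the edgeR unadjusted p was 0.0264 for Egr1 and 0.00952 for Egr2. Log2 fold changes near 0 turned sign: Egr3 ran from -0.06 to 0.10, Nfatc3 from -0.05 to 0.0008, Nfatc2ip from -0.07 to 0.01, Dusp10 from -0.03 to 0.13 and Dusp4 from -0.02 to 0.04 when single libraries were left out, and without KO-labelled libraries 1 and 4 Nfatc2ip stood at 0.02, Dusp10 at -0.11 and Dusp4 at -0.02. The cause was not tested. Nr4a2, with 69 to 134 counts per library, is the member that depth limits most.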
